A study of Mus musculus with 4 samples.

Results

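The genes described here are those whose symbol begins with Cd and a number, the symbols given to cluster of differentiation (CD) antigens. These are surface proteins first catalogued with antibodies on blood cells. All probe sets of the value table whose platform annotation gives a single symbol of this form were taken, except those of Cd24a and Cd74. This gave 80 probe sets of 60 genes, of 12422 probe sets in all. The symbol pattern and not a measured value chose them. It also took in the secreted macrophage protein Cd5l and Cd2ap and Cd2bp2, partners named after a CD antigen, none of which are surface antigens. Many of the others, such as Cd63, Cd81 and Cd164, are present on most tissues and do not mark blood cells.

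PEPCK-TAg mice carry a transgene for the large T and small t oncoproteins of SV40, and by its name it is driven by the promoter of PEPCK, the gluconeogenic enzyme of hepatocytes. Wild-type (WT) mice carry no transgene. All mice were males of a B6SJL hybrid, 50 to 66 days old, and both groups had been fed 65% protein and 10% carbohydrate for 4 weeks. Liver RNA was read on Affymetrix MG_U74Av2 arrays, 2 for each group. Whether both arrays of a group stem from different animals is not in the labels, so p-values measure the spread between these arrays, which may be technical.

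CD antigens sort blood cells by lineage and state. T cells carry the CD3 chains with the CD4 or CD8 coreceptor, B cells the CD79 chains of the antigen receptor, and monocytes and macrophages CD14 and CD68. Tetraspanins such as CD9, CD53 and CD63 organise membrane and endosome proteins. A healthy liver holds Kupffer cells, natural killer and T cells in its sinusoids. The fetal liver is also a site of blood formation.

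The table is in Affymetrix signals, which the authors had scaled to a common level. Array medians were 77.0 and 84.7 in PEPCK-TAg liver and 68.5 and 66.6 in WT liver. Signals were raised to a floor of 10.6 before log2 was taken, and a probe set was tested only if 2 or more arrays, whatever their group, exceeded 41.3. The PEPCK-TAg arrays share a chip lot that no WT array has, so lot and genotype cannot be told apart. The 7 hepatocyte markers with a probe set were all tested, and their summed signal was 40892 to 51555 in PEPCK-TAg liver and 68516 to 69538 in WT liver. The hepatocyte list had 2 members that fell, Tat and Ttr.

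Of the 80 CD probe sets, 34, of 30 genes, could be tested, and 8 rose in PEPCK-TAg liver while 0 fell (limma, Benjamini-Hochberg adjusted p under 0.05). The genes that rose were Cd63, Cd53, Cd83, Cd9, Cd5l, Cd48, Cd14 and Cd93. The share that rose was 23.5%, beside 9.1% of all probe sets tested, and 3.4% of all probe sets tested fell. In bulk liver RNA, more cells of a type and more RNA per cell cannot be told apart. At an unadjusted p under 0.05, 12 members were higher and 4 lower, where 19.4% of all probe sets tested were higher and 11% lower.

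The filter bears on this count, since a probe set bright in 1 group alone passes it. Cd83, Cd53 and Cd48 passed through their PEPCK-TAg arrays only. Among the 27 members above 41.3 on both WT arrays, 4 rose (Cd63, Cd9, Cd5l and Cd14), or 14.8%, beside 6.11% of all such probe sets. The median log2 difference of these 27 was -0.048, and that of all such probe sets was -0.033. Over the 34 tested it was 0.35, against 0.051 for all probe sets tested, and over all 80 it was 0, as it was for the whole table. Of the 80, 15 lay at or under the floor on every array, which sets their difference to 0.

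**Figure D1:**
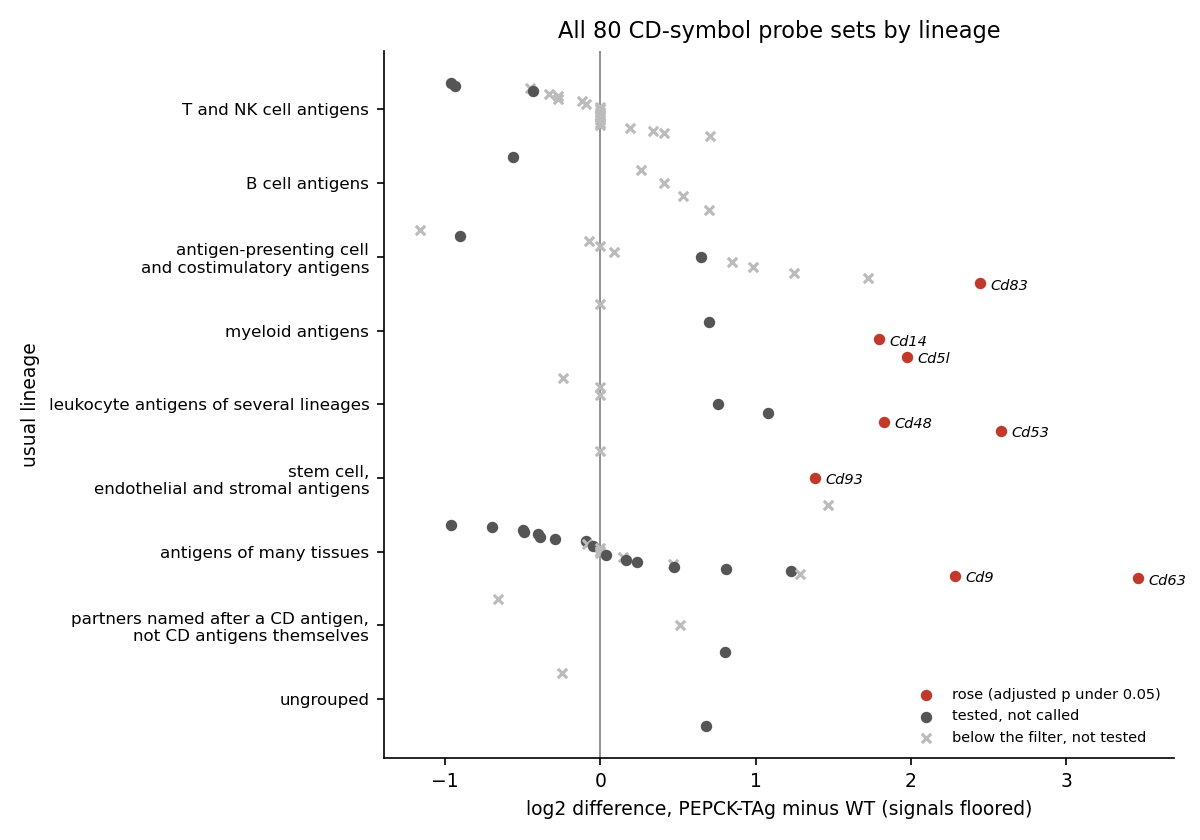
The log2 difference (PEPCK-TAg minus WT, signals floored at 10.6) of each of the 80 probe sets, in rows by usual lineage. Red points rose in limma's test, dark points were tested and not called, and crosses were too dim to test. The rises lie at 1.38 to 3.46, and most crosses, which include the CD3 chains, lie near 0.

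Without a test, 10 of the 34 members were 2-fold or more higher with no overlap between groups, or 29.4%, beside 14.7% of all probe sets tested. These were the 8 that rose, Cd99 and Cd52. In the opposite direction there were 0 members, beside 5.87% of all probe sets tested. The groups did not overlap in 24 members, 16 higher and 8 lower. This was 70.6% of the members, beside 59.8% of all probe sets tested.

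Myeloid antigens had 3 probe sets tested, and 2 of them rose. Cd14, the co-receptor for bacterial lipopolysaccharide on monocytes and macrophages, read 1037 and 597 in PEPCK-TAg liver and 223 and 232 in WT liver. Both PEPCK-TAg values lay above both WT values, and the WT arrays differed little. Cd14 rose 3.47-fold (log2 difference 1.79 ± 0.32 SE, adjusted p = 0.0162, limma, n = 2 arrays per group as for all values here). Without PEPCK-TAg 1 the difference was 1.39, and without PEPCK-TAg 2 it was 2.19.

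Cd5l, a scavenger receptor family protein secreted by macrophages, read 998 and 1229.9 in PEPCK-TAg liver and 334 and 239 in WT liver. It rose 3.92-fold (1.97 ± 0.27 SE, adjusted p = 0.00695). Cd68, an endosomal glycoprotein of macrophages, read 176 and 193 in PEPCK-TAg liver and 94.9 and 136 in WT liver. The groups did not overlap, but the difference of 0.70 ± 0.30 (SE) did not pass (adjusted p = 0.177). Its probe set has the suffix that Affymetrix gives to probes shared by several transcripts. A further Cd68 probe set had signals of 1.6 to 2.9 only. Cd300c2, of the CD300 receptor family and in no lineage list, read 171 and 152 in PEPCK-TAg liver and 97.7 and 104 in WT liver (0.68 ± 0.28 SE, adjusted p = 0.159).

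Antigens shared by several leukocyte lineages had 4 probe sets tested, all with a higher mean in PEPCK-TAg liver, and 2 rose. Cd53, a tetraspanin of leukocytes, read 89.3 and 185 in PEPCK-TAg liver and 20.2 and 22.8 in WT liver. It rose 5.98-fold (2.58 ± 0.45 SE, adjusted p = 0.0158). The PEPCK-TAg arrays differed from each other, and the log2 difference was 3.10 without PEPCK-TAg 1 and 2.06 without PEPCK-TAg 2. With a floor at the 40th percentile it was 1.64 and its call was lost (adjusted p = 0.0541).

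Cd48, a lipid-anchored ligand of the receptors Cd244 and Cd2, read 99.0 and 98.5 in PEPCK-TAg liver and 25.9 and 29.9 in WT liver. The arrays of each group were close, and Cd48 rose 3.55-fold (1.83 ± 0.35 SE, adjusted p = 0.0212). Cd52, a short glycoprotein of lymphocytes and other leukocytes, read 79.8 and 98.5 in PEPCK-TAg liver and 51.5 and 34.2 in WT liver (1.08 ± 0.38 SE, adjusted p = 0.115). Its groups did not overlap, and it was not called.

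Cd37, a tetraspanin mainly of B cells, read 49.0 and 55.4 in PEPCK-TAg liver, between the WT values of 70.5 and 13.5. The WT arrays decide its value. The log2 difference of 0.76 ± 0.76 (SE) became 1.95 without WT 1, with an adjusted p of 0.0236 (0.0469 on the probe sets tested with all arrays), and -0.43 without WT 2. Cd44, the hyaluronan receptor, had 3 probe sets, all of them at most 16.0 on every array and untested.

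**Figure D2:**
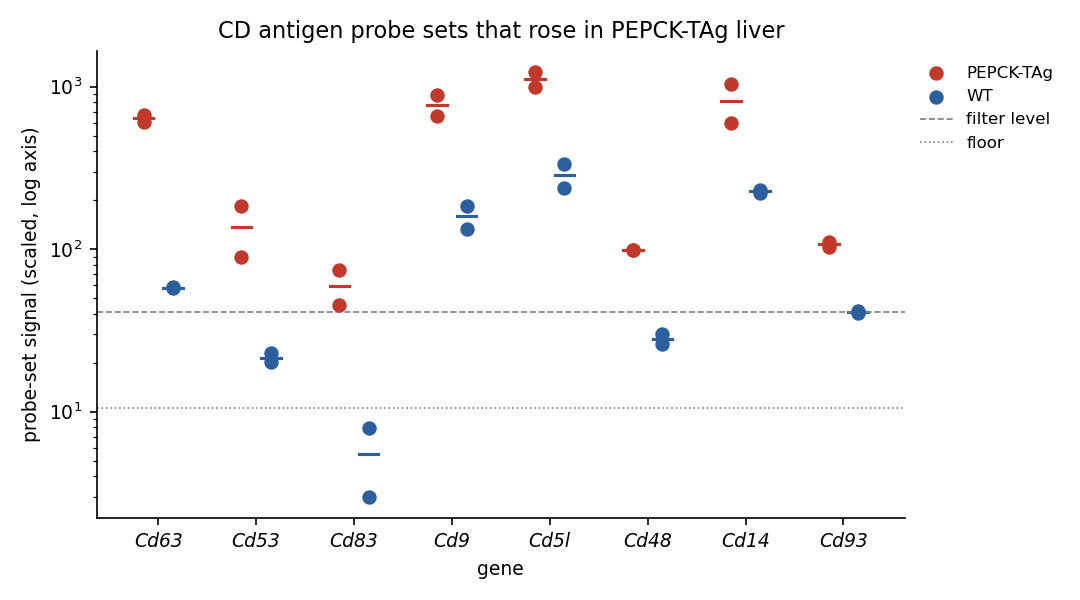
Scaled signals on a log axis of the 8 CD probe sets that rose, with PEPCK-TAg arrays left of WT arrays for each gene. Points are arrays, bars are group means, and lines mark the filter level of 41.3 and the floor of 10.6. No gene has overlapping groups, and Cd83 lies under the floor on both WT arrays.

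Antigens of presenting cells and costimulation had 3 probe sets tested, of which Cd83 rose. Cd83, a marker of mature dendritic cells that activated lymphocytes also carry, read 74.02 and 45.0 in PEPCK-TAg liver and 7.9 and 3.0 in WT liver. Both WT values lie under the floor, so it was at least 5.45-fold higher (2.45 ± 0.49 SE, adjusted p = 0.0246). The floor also leaves its WT arrays with a spread of 0. A floor at the 40th percentile gave 0.48 (adjusted p = 0.297). A second Cd83 probe set, too dim to test, did not share the difference, with 26.1 and 23.997 in PEPCK-TAg liver and 25.6 and 27.0 in WT liver. The dendritic cell markers had 4 tested probe sets, of which 0 rose and 0 fell. At an unadjusted p under 0.05, 1 of them (Xcr1) was lower. Their summed signal was 342 to 385 in PEPCK-TAg liver and 405 to 424 in WT liver, and their part in the Cd83 result was not tested.

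Cd1d1, which presents lipids to natural killer T cells, read 2191 and 1492 in PEPCK-TAg liver and 4335 and 2627 in WT liver. The groups did not overlap, but the difference of -0.90 ± 0.33 (SE) did not pass (adjusted p = 0.123). Without WT 2 it was -1.26, and without WT 1 it was -0.54. Scanner type as a block also gave -1.26, which is the same comparison, as WT 2 alone had its scanner type. Cd276, a B7 family protein, read 168 and 251 in PEPCK-TAg liver and 123 and 140 in WT liver (0.65 ± 0.31 SE, adjusted p = 0.212). Its second probe set was at most 25.5 on every array.

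Among stem cell, endothelial and stromal antigens, Cd93 alone was bright enough to test. Cd93, a C-type lectin of endothelium, early B cell precursors and monocytes, read 104 and 111 in PEPCK-TAg liver and 40.6 and 41.7 in WT liver. It rose 2.60-fold (1.38 ± 0.32 SE, adjusted p = 0.0398). The arrays of each group were close, but the call was near the threshold. It was lost under quantile normalization (1.11, adjusted p = 0.0671) and with scanner type as a block (adjusted p = 0.0778). The 8 endothelial marker probe sets tested showed 0 rises and 0 falls. At an unadjusted p under 0.05, 3 of them (Cdh5, Lyve1 and Vwf) were higher, where 19.4% of all probe sets tested were higher and 11% lower. The endothelial markers had a summed signal of 1012 to 1158 in PEPCK-TAg liver against 686 to 868 in WT liver. Their part in the Cd93 result was not tested.

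Of the antigens of many tissues, 17 probe sets of 13 genes were tested, and those of Cd63 and Cd9 rose. Cd63, a tetraspanin of late endosomes, lysosomes and platelet and leukocyte granules, read 603 and 673 in PEPCK-TAg liver and 57.6 and 58.2 in WT liver. It rose 11.0-fold (3.46 ± 0.26 SE, adjusted p = 0.00112). Its differences with an array left out ran from 3.38 to 3.54. Cd9, a tetraspanin of platelets, B cells and many epithelia, read 663 and 882 in PEPCK-TAg liver and 133 and 185 in WT liver. It rose 4.87-fold (2.29 ± 0.29 SE, adjusted p = 0.00523).

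The lysosomal membrane proteins Lamp1 and Lamp2, picked after their values were seen, were not higher. Lamp2 fell in 1 probe set (974 and 887 in PEPCK-TAg liver, 1701 and 1846 in WT liver, log2 difference -0.93 ± 0.22 SE, adjusted p = 0.0399). A second Lamp2 probe set gave -0.74 (adjusted p = 0.175). Lamp1 read 4477 and 5658 in PEPCK-TAg liver and 6994 and 6432 in WT liver (-0.41, adjusted p = 0.275).

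The other tetraspanins, grouped after their values were seen, did not pass. Of 10 tested probe sets of the 7 tetraspanin genes here, 3 rose, those of Cd63, Cd9 and Cd53. Cd81, part of the B cell co-receptor and present on hepatocytes, read 664 and 1003 in PEPCK-TAg liver and 775 and 919 in WT liver, with overlapping groups (-0.048 ± 0.28 SE, adjusted p = 0.928). Cd82 gave -0.39 (adjusted p = 0.453) and 0.040 (adjusted p = 0.947) in its 2 tested probe sets.

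The probe sets of Cd151, a partner of laminin-binding integrins, did not give a single answer. One read 174 and 246 in PEPCK-TAg liver and 379 and 429 in WT liver, a difference of -0.96 ± 0.28 (SE) that did not pass (adjusted p = 0.0729). It passed without WT 1 (-1.05, adjusted p = 0.0395), though not on the probe sets tested with all arrays (adjusted p = 0.0597). The other tested ones gave 0.16 and 0.24 with overlapping groups, and turned to -0.34 and -0.22 without WT 2. All of these carry suffixes for probes that are shared or chosen under relaxed rules.

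Cd99, an adhesion protein of leukocytes and endothelium, read 325 and 525 in PEPCK-TAg liver and 219 and 142 in WT liver. It was 2.34-fold higher with no overlap, but did not pass (1.23 ± 0.35 SE, adjusted p = 0.0697). Without WT 1 it passed (1.54, adjusted p = 0.00522). Cd47, the signal that restrains phagocytosis, read 842 and 859 in PEPCK-TAg liver and 483 and 486 in WT liver in 1 probe set (0.81 ± 0.22 SE, adjusted p = 0.0616). A second Cd47 probe set gave 0.47 ± 0.28 (SE), adjusted p = 0.304. The other tested members of this group had differences between -0.69 (Cd59a, an inhibitor of the complement attack complex) and -0.090 (Cd99l2), and did not pass. They were Cd59a, Cd59b, Cd164, Cd302, Cd320 and Cd99l2, and the groups of Cd59b, Cd164 and Cd99l2 overlapped. Among them, Cd302, a C-type lectin receptor, read 1783 and 1764 in PEPCK-TAg liver and 2801 and 2211 in WT liver (-0.49 ± 0.23 SE, adjusted p = 0.207). Cd59a passed without WT 1 (-0.96, adjusted p = 0.0448), though not on the probe sets tested with all arrays (adjusted p = 0.0756). Cd2ap, an adaptor at the cell cortex and no surface antigen, gave 0.80 ± 0.36 (SE), adjusted p = 0.189.

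The T and NK cell antigens had 21 probe sets, and 18 of them were too dim to test, with signals of 0.2 to 34.4. Among these were all 6 probe sets of the signalling chains Cd3d, Cd3e, Cd3g and Cd247, and those of the coreceptor chains Cd8a and Cd8b1. The others were of the adhesion and signalling receptors Cd2, Cd5, Cd6, Cd96, Cd160 and Cd244a, the costimulatory receptor Cd28 and the helper ligand Cd40lg, with the second probe set of Cd27. These 18 were not tested. The 3 that were tested had lower means in PEPCK-TAg liver and did not pass. Cd4, the coreceptor of helper T cells, read 50.1 and 46.8 in PEPCK-TAg liver and 82.6 and 104 in WT liver (-0.93 ± 0.34 SE, adjusted p = 0.120). Cd27, a costimulatory receptor, read 29.5 and 44.6 in PEPCK-TAg liver and 73.4 and 68.1 in WT liver (-0.96 ± 0.39 SE, adjusted p = 0.154). A second Cd27 probe set, too dim to test, went the other way, with 15.9 and 24.4 in PEPCK-TAg liver and 14.5 and 15.1 in WT liver. Cd7 read 88.3 and 125 in PEPCK-TAg liver and 110 and 183 in WT liver, with overlapping groups (-0.43 ± 0.37 SE, adjusted p = 0.473).

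Of 4 T cell marker genes with a probe set, 2 were tested, and 2 of the 4 tested probe sets, both of the kinase Zap70, fell, 1 of them at least 11.4-fold and the other 12.7-fold. The summed T cell marker signal was 175 to 331 in PEPCK-TAg liver and 742 to 937 in WT liver. Zap70 carried this difference, and without it the sums overlapped, with 132 and 273 in PEPCK-TAg liver and 177 and 214 in WT liver. The untested Thy1 and Il7r went the other way. Thy1 read 31.0 and 75.1 in PEPCK-TAg liver and 8.9 and 10.4 in WT liver. Il7r read 29.8 and 36.9 in PEPCK-TAg liver and 16.1 and 11.1 in WT liver. The part of T cell markers in the lower means of the tested Cd4, Cd27 and Cd7 probe sets was not tested. For NK cells, 1 probe set could be tested and did not pass (-0.29), and Ncr1 and Prf1 were at the floor on every array.

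B cell antigens had 5 probe sets, of which Cd79a, a signalling chain of the B cell receptor, was tested. It read 42.3 and 51.5 in PEPCK-TAg liver and 56.6 and 84.0 in WT liver (-0.56 ± 0.38 SE, adjusted p = 0.364). Cd22, Cd72, Cd79b and Cd180 had signals of 4.2 to 44.5. Of 10 B and plasma cell marker probe sets tested, 0 rose and 0 fell. At an unadjusted p under 0.05, 1 of them (of Ighm) was lower. The summed signal of these markers was 543 to 597 in PEPCK-TAg liver and 736 to 800 in WT liver.

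In all, 46 member probe sets stayed untested, 15 of them at or under the floor on every array. They left 30 genes with no tested probe set. Besides the lymphocyte genes above these were Cd1d2, Cd34, Cd36, Cd40, Cd44, Cd46, Cd55, Cd70, Cd80, Cd86, Cd200 and Cd2bp2 in the other groups. Of the 46, 4 were 2-fold or more higher with no overlap on the floored scale, beside 4.71% of all untested probe sets. In the opposite direction there was 1, of Cd80, for which no share of all untested probe sets was computed. Cd40, the receptor for T cell help on presenting cells, read 43.6 and 28.0 in PEPCK-TAg liver and 5.0 and 10.5 in WT liver. Cd34, of progenitors and endothelium, read 25.5 and 33.7 in PEPCK-TAg liver and 6.3 and 9.4 in WT liver, while its second probe set was at most 7.7 on every array. Cd36, the fatty acid translocase, read 28.5 and 26.2 in PEPCK-TAg liver and 6.3 and 11.9 in WT liver. Its second probe set was at most 0.9 on every array. Cd1d2 read 35.5 and 24.8 in PEPCK-TAg liver and 14.7 and 9.0 in WT liver. Since 1 or both WT arrays lay under the floor, these are bounds of at least 3.30-fold, 2.77-fold, 2.43-fold and 2.38-fold for Cd40, Cd34, Cd36 and Cd1d2. The Cd80 probe set read 9.8 and 10.6 in PEPCK-TAg liver and 30.0 and 18.7 in WT liver, at least 2.24-fold lower. The other Cd80 probe set was at most 6.7 on every array.

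CD antigens whose symbols have another form, such as the integrins, were set beside these. Of 75 listed, 64 had a probe set, and of 42 probe sets tested 5 (11.9%), of 4 genes, rose and 1 (2.38%) fell. These shares are near the 9.1% and 3.4% of all probe sets tested. Of the 5 that rose, 4 passed the filter through their PEPCK-TAg arrays only, those of Ptprc, Itgb2 and Icam2 and 1 of Vcam1. The median log2 difference of the 42 tested was 0.31. Ptprc (CD45), the phosphatase of all nucleated blood cells, read 185 and 107 in PEPCK-TAg liver and 38.5 and 13.3 in WT liver. It rose 6.21-fold (2.63 ± 0.58 SE, adjusted p = 0.0332), with 2 further probe sets too dim to test. Itgb2 (CD18), the common chain of leukocyte integrins, read 155 and 201 in PEPCK-TAg liver and 35.6 and 10.2 in WT liver, and rose by a log2 difference of 3.18 ± 0.60 (SE) between floored signals (adjusted p = 0.0190), with WT 2 under the floor. Vcam1 (CD106), an adhesion ligand of endothelium and macrophages, rose 7.68-fold and 5.66-fold in 2 of 3 probe sets. Icam2 (CD102) was at least 4.45-fold higher. Itgam (CD11b), the Itgb2 partner of neutrophils and macrophages, was at or under the floor on every array. The macrophage receptor Csf1r (CD115) gave 0.69 (adjusted p = 0.110) and -0.25.

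Markers of granulocytes and red cells were also higher on the PEPCK-TAg arrays. Of 8 neutrophil and granulocyte precursor probe sets tested 7 rose, 5 of them with no WT array above the filter level, and their summed signal was 5864 to 10246 in PEPCK-TAg liver and 320 to 335 in WT liver. Of 10 erythroid probe sets tested 8 rose, 3 of them with no WT array above the filter level, with sums of 10154 to 13631 in PEPCK-TAg liver and 3277 to 3305 in WT liver. Of 9 Kupffer cell and macrophage probe sets tested, that of Lyz2 rose, and 5 in all had an unadjusted p under 0.05 (limma). A C1qb probe set among these 5 was lower (-0.79), and the others were higher. Sums of this list were 5062 to 5453 in PEPCK-TAg liver and 2412 to 3277 in WT liver, and Marco stayed at the floor. Of 6 probe sets of blood progenitor genes tested, that of Myb rose, with no WT array above the filter level. Of these 6, 4 had differences below 0, and the median was -0.13. Of platelet genes the only 1 tested, Gp9, rose, with no WT array above the filter level. Platelet sums were 129 to 212 in PEPCK-TAg liver and 31.4 to 66.0 in WT liver. Gp9 carried most of these sums, with 115 and 200 in PEPCK-TAg liver and 23.3 and 39.8 in WT liver. The untested Pf4 had a lower mean in PEPCK-TAg liver (3.2 and 6.5) than in WT liver (5.0 and 22.1). Itgb3 was at or under the floor on every array. Of 5 stellate cell and fibroblast probe sets tested 0 rose and 0 fell, with 1 (of Col1a2) lower at an unadjusted p under 0.05. The 4 biliary probe sets were too dim to test. The part of these cells in the CD antigen rises was not tested.

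**Figure D3:**
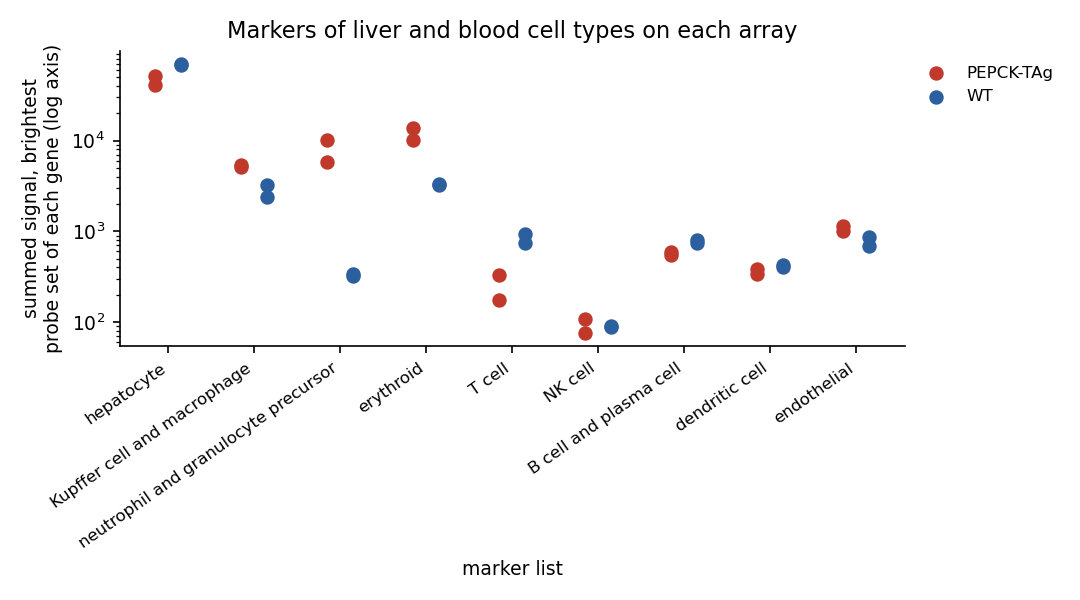
Summed signal (log axis) of cell type markers on each array, with each gene counted by its brightest probe set and PEPCK-TAg left of WT. Neutrophil and erythroid sums lie far higher on both PEPCK-TAg arrays, and hepatocyte sums lie lower on both. The T cell sum is lower on both through Zap70 alone.

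The array files allow a few comparisons within a technical batch. PEPCK-TAg 1 and WT 1 were scanned on 1 day, and their log2 differences for the genes that rose were 3.39 (Cd63), 2.81 (Cd83), 2.32 (Cd9), 2.22 (Cd14), 2.14 (Cd53), 1.93 (Cd48), 1.58 (Cd5l) and 1.35 (Cd93). All 8 were above 0 in this pair, as groups without overlap require, and the pair has no replicate and no test. Leaving out WT 2 leaves a single scanner type, and leaving out PEPCK-TAg 2 a single fluidics station. Every difference of the 8 genes stayed above 0 with any array left out, as it must where the groups do not overlap. The calls did not all last. Without PEPCK-TAg 1, and likewise without PEPCK-TAg 2, a filter applied anew to the arrays kept left 5 of the 8 tested. The others then went untested and could not be called. Fits on the probe sets tested with all arrays keep all 8. On the same probe sets, all 8 were lost without PEPCK-TAg 1 or without PEPCK-TAg 2, where 0 probe sets of the whole table passed, and 7 held without WT 1 or without WT 2, where Cd93 was lost. With the filter applied anew to the arrays kept, Cd63 and Cd9 held without PEPCK-TAg 1, Cd63 held without PEPCK-TAg 2, and all 8 held without WT 1 or without WT 2.

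**Figure D4:**
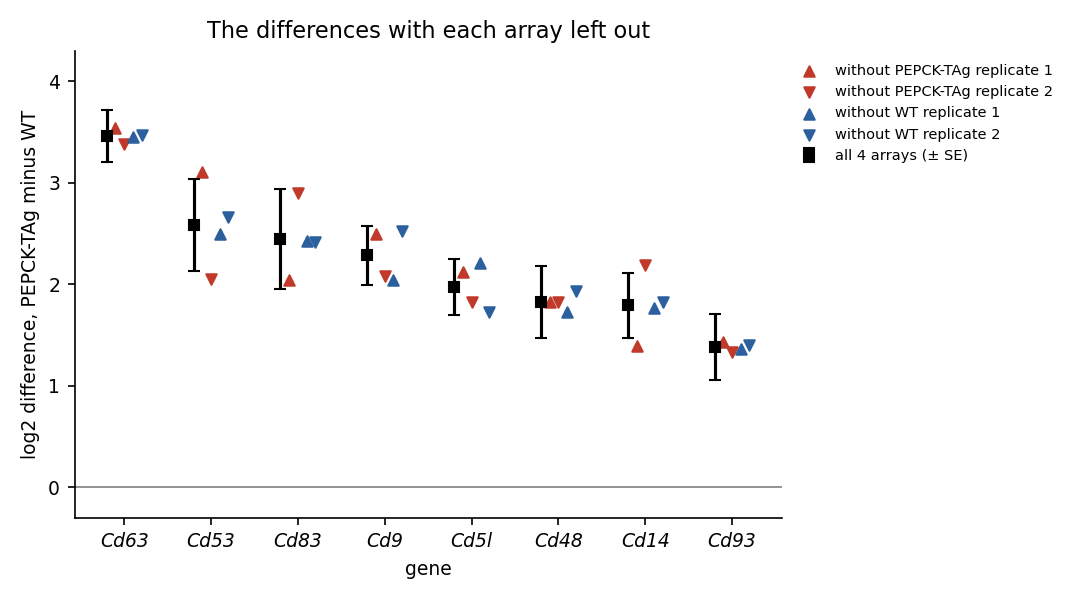
Log2 differences (PEPCK-TAg minus WT) of the 8 probe sets that rose. Squares with bars give all 4 arrays ± SE, and triangles give the value with 1 array left out (red, a PEPCK-TAg array, blue, a WT array). Every triangle lies above 0, as it must for groups without overlap. Cd53, Cd83 and Cd14 spread most with the PEPCK-TAg array left out.

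Promoters of the genes that rose, which were picked by that call, are shown so that any shared letters can be seen. RefSeq (GRCm38.p6) promoters, 300 bases each, were at hand for 5 of the 8 genes, Cd48, Cd53, Cd5l, Cd63 and Cd9, and are not used here for the others. Letters searched on both strands were GAGGAA, the core of sites for PU.1 and related ETS factors, AGATAA for GATA factors and TGTGGT for RUNX factors, and no motif contains another. Matches are in capitals, and sequences run 5′ to 3′ as the table gives them. Cd48 lies at chr1:171681742-171682041 (plus strand), Cd53 at chr3:106790100-106790399 (minus), Cd5l at chr3:87357631-87357930 (plus), Cd63 at chr10:128909095-128909394 (plus) and Cd9 at chr6:125494711-125495010 (minus).
Cd53: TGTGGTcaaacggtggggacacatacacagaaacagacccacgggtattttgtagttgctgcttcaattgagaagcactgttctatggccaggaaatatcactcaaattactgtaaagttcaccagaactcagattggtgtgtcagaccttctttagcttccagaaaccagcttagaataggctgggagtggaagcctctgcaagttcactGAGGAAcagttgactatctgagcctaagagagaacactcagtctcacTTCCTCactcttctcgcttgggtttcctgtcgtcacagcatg
Cd48: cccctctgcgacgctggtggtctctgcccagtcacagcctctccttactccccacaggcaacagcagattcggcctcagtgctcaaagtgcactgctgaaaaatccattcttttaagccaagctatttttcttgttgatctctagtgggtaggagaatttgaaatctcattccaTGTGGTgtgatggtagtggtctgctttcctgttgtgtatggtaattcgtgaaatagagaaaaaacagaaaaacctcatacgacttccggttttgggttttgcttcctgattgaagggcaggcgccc
Cd5l: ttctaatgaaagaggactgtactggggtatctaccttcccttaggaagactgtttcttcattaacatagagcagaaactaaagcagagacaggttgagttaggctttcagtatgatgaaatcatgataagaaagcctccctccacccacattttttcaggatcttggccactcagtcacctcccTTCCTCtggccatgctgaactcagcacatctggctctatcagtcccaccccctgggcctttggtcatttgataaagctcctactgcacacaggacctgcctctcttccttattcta
Cd63: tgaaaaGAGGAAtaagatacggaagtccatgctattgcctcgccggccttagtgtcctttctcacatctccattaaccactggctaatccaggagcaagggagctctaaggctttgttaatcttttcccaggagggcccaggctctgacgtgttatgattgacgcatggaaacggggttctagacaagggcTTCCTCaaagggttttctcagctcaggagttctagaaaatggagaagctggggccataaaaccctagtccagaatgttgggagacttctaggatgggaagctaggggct
Cd9: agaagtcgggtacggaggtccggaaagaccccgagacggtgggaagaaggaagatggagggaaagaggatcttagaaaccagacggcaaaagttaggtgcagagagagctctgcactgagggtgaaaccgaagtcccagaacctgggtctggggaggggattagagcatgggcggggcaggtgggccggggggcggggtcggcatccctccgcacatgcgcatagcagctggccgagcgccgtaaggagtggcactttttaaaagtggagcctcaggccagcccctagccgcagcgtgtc

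The GAGGAA letters were in the promoters of Cd53, Cd63 and Cd5l, so in 3 of 5. They were in 22 of 50 promoters of the 42 CD genes with an entry (44.0%) and in 28.3% of all 32851 promoters. TGTGGT was in those of Cd53 and Cd48, in 18.0% of the CD gene promoters and in 16.8% of all. AGATAA was in 0 of the 5, in 10.0% of the CD gene promoters and in 11.2% of all. The Cd9 window held no match to any of these letters. A match is a run of letters and says nothing about binding.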

How the data were processed

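The authors deposited 1 signal intensity per probe set and array on a linear scale, made with MAS5 (version not given in the sources used here), per the submitters' processing notes. The arrays' settings, other values beside the signals, were read from the array files as deposited. The 2% trimmed means of the deposited signals lay between 250.1 and 250.2. Arrays were scaled linearly to a common trimmed mean without the 66 controls, set to at least the 20th percentile (10.6) and put on log2. Probe sets above the 40th percentile (41.3) on at least 2 of 4 arrays were tested, 7877 in all. Groups were compared with limma 3.58.1 (R 4.3.3, eBayes with an intensity trend, two-sided, 6.60 degrees of freedom, no block), adjusted over all probe sets tested, and the fit was tested on simulated data. A count of 2-fold differences without overlap has no test, as the smallest exact permutation p with 2 arrays a group is 0.333.

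Genes were named from the platform's table. All 60 CD symbols matched the RefSeq table (GRCm38.p6, used for names). The members, lineage lists and marker lists were chosen with earlier results of these data known. Members called, or 2-fold apart without overlap, are given with every array, and others by range. Values of Cd37, Cd151 and some further tested members were named after they were seen. Alternatives were other scalings, floors and filters, arrays left out, blocks and thresholds. Leaving out arrays on unchanged probe sets was added after seeing the data. Signals near the floor carry little information, and the number of arrays limits all precision.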

Additional observations from a re-analysis of the deposited data

How the results depend on the processing

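With all 4 arrays 8 member probe sets rose, 0 fell, 10 were 2-fold or more higher and 0 lower without overlap, and the median difference was 0.35. A filter at the 60th percentile left 21 members, 4 rises and 5 at 2-fold or more, because Cd48, Cd53, Cd83, Cd93 and Cd52 then went untested. Without a filter all 80 entered, 1 rose (Cd63) and 1 was 2-fold lower. The median was 0, with 15 members at or under the floor on every array. The fluidics station as a block gave 0 rises among members and 0 calls in the whole table. Quantile normalization gave 6 rises, 3 members 2-fold lower and a median of 0.073. Scanner type as a block gave 1 fall (Cd1d1) and a median of 0.13. An adjusted p of 0.1 gave 1 fall. In the pair scanned on 1 day, 3 members were 2-fold or more lower. PEPCK-TAg 2 alone used its fluidics station and WT 2 alone its scanner type. Such a block leaves that array no part in the difference between the groups. The cause of the other changes was not tested.

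With an array left out, members 2-fold higher ran from 5 to 12, 2-fold lower from 1 to 3, and medians from 0.12 to 0.59. With a replicate block, 3 members fell (Cd1d1, Cd59a, Cd151) and 10 rose. Calls in the whole table, 985 in the main fit, were then 1873. Labels do not say that equal numbers mark shared litters or days, and deviations of equally numbered arrays correlated at 0.25 over 7877 probe sets. Signs turned for members that were not called. Cd37 gave -0.050 with a floor at the 40th percentile, -0.43 with scanner type as a block or without WT 2 and -0.52 in the pair of 1 day, and 1.95 without WT 1. The Cd151 probe sets at 0.16 and 0.24 gave -0.34 and -0.22 with scanner type as a block or without WT 2, -0.23 and -0.084 in the pair of 1 day, and 0.67 and 0.69 without WT 1. Of the values of single members under alternatives, 543 kept direction and side of the threshold, 44 lost it, 17 gained it, 13 turned sign and 9 without a test moved.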
